A study of Helianthus annuus with 2 samples.

Results

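The regions described here are the H3K4me3 peaks of sunflower chromosome 10. They were chosen by sequence name alone, as every interval of the 2 deposited peak lists that lies on chromosome 10. The list labelled 28 DAA (days after anthesis) held 8884 such peaks of 123464 in all, and the list labelled 13 DAA held 12815 of 165079, which makes 21699 of 288543 intervals. The seeds came from the high-oleic sunflower line CAS-9, raised in growth chambers, and were collected late (28 DAA) or early (13 DAA) in the period of fatty acid synthesis. In both samples, cross-linked chromatin of whole developing seeds was precipitated with an antibody against H3K4me3, so the tissues of the seed are not separated. Each stage had 1 library. No spread between replicates could therefore be computed, no test between the stages was made, and every comparison describes these 2 lists.

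H3K4me3 is the trimethylation of lysine 4 on histone H3. In plants, as in other eukaryotes, it is deposited mainly around the transcription start sites of active genes, and its peaks therefore tend to follow the gene-bearing parts of a genome. In large plant genomes, genes are commonly denser towards the chromosome ends, while the interior around the centromere is rich in transposable elements. A run of marked nucleosomes behind a start site can appear as 1 wide peak or as several neighbouring ones.

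The text of the paper gives these peak numbers with the stages exchanged, and which assignment holds was not tested here. The lists are therefore named by their labels, and 28 DAA or 13 DAA beside a value means the list so labelled. Positions are those of the lists, in the version of the XRQ genome to which the authors mapped their reads, and are counted from 1. The end of the last peak in either list served as the length of a chromosome. On this basis chromosome 10 was 246.275 Mb long, which made it the longest of the 17, ahead of chromosome 5 with 219.052 Mb. The label of the longest chromosome thus held in these lists. In another assembly, the last gene of chromosome 10 ended at 181.257 Mb. Lengths and positions therefore hold only for the version that the lists use. The fold enrichment of a peak, as called by MACS2, compares the fragments over its summit with the number that the local background would give, and the q-value is the p-value corrected for multiple testing. Fragment numbers were worked out from both values, with a solution for 100% of the peaks of either list. The lists give depth only as the background over the whole genome, which amounted to 143 fragments in 10 kb for 28 DAA and 157 for 13 DAA. All intervals given below are at the 95% level and cover counting error only.

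Chromosome 10 carried fewer peaks than its length would give. It made up 8.21% of the length of the 17 chromosomes but held 7.26% of their peaks at 28 DAA and 7.87% at 13 DAA. The density was 36.1 peaks per Mb at 28 DAA, which was the second lowest of the 17 chromosomes. The other 16 ranged between 32.9 (chromosome 2) and 46.1 (chromosome 14) around a median of 42.2. For 13 DAA it was 52.0 peaks per Mb, the third lowest, while the others ranged between 48.4 (chromosome 2) and 59.2 (chromosome 15) around a median of 54.9. Chromosome 2 was sparser in both lists, so the low density was not particular to chromosome 10.

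Longer chromosomes tended to have fewer peaks per Mb in both lists. Over the 17 chromosomes, Pearson's r between length and density was −0.58 at 28 DAA and −0.52 at 13 DAA, and Spearman's rho was −0.65 and −0.66. Over the 16 chromosomes without chromosome 10, r was −0.49 at 28 DAA and −0.47 at 13 DAA. The chromosomes of a list share 1 library, and the length enters both measures, so these values are descriptions without a test.

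The 2 lists differed in how many peaks they placed on chromosome 10 and in how much of it they covered. There were 0.693 times as many peaks at 28 DAA as at 13 DAA, the second lowest ratio of the 17 chromosomes. The others ranged between 0.680 on chromosome 2 and 0.815 on chromosome 6. Once the q-value was limited to 1e-10, the direction turned and the ratio was 2.20. This limit was met by 6724 peaks (75.7%) at 28 DAA and 3060 (23.9%) at 13 DAA. On the other chromosomes the direction turned as well, with ratios between 2.17 and 2.43. Their median shares of peaks that met the limit were 76.1% at 28 DAA and 25.1% at 13 DAA. The covered length of chromosome 10 went the opposite way from the number of all its peaks, with 3.29 Mb at 28 DAA and 2.82 Mb at 13 DAA. This ratio of 1.17 was the lowest of the 17 chromosomes, although that of chromosome 2 was close to it at 1.18 and the highest was 1.36 on chromosome 6. The ratio of peak numbers was second lowest also at the stricter q-value limit, with the list labelled 13 DAA cut to as many strongest peaks as the other, and after neighbouring peaks had been joined.

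**Figure D1:**
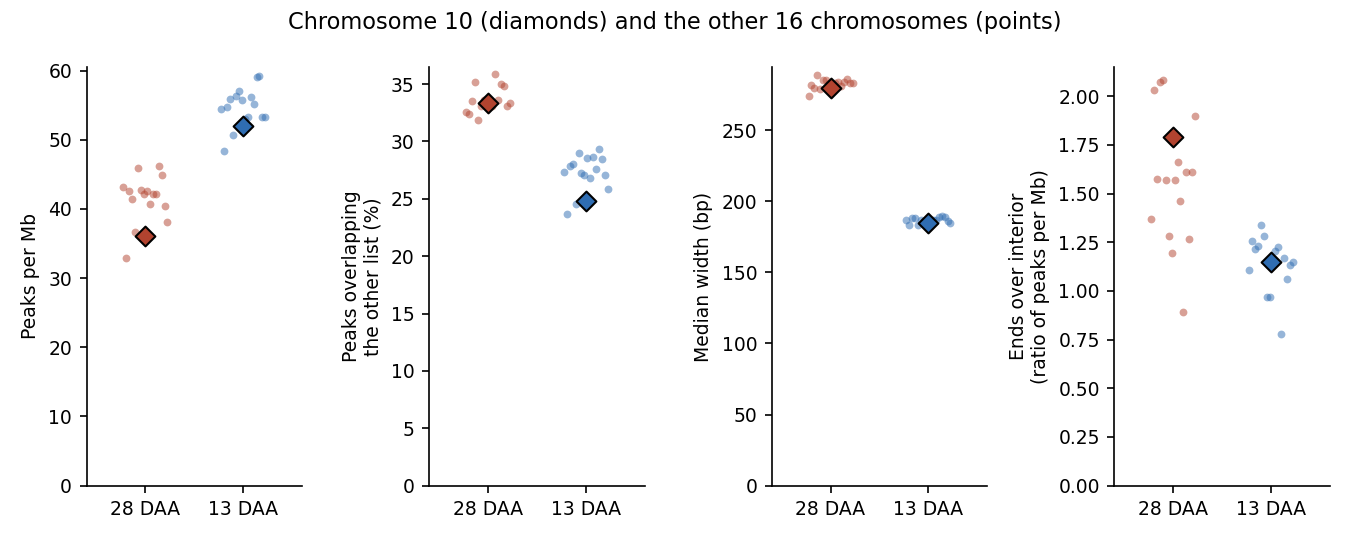
Peaks per Mb, share of peaks overlapping the other list, median peak width in bp, and ratio of peaks per Mb in the ends to those in the interior, for the lists labelled 28 DAA (red) and 13 DAA (blue), where diamonds are chromosome 10 and points are the other 16 chromosomes, spread sideways for legibility. Chromosome 10 lies near the bottom in density (36.1 and 52.0 peaks per Mb) and amid the others in median width (280 and 185 bp).

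Along chromosome 10, the peaks were counted by summit in 246 windows of 1 Mb. At 28 DAA a window held between 5 and 112 peaks, with a median of 33 and quartiles of 23 and 45. A window at 13 DAA held between 27 and 85, with a median of 50 and quartiles of 43 and 60. The list labelled 28 DAA was thus spread less evenly. Its coefficient of variation over windows was 51.2%, against 25.0% at 13 DAA, and on the other chromosomes it was between 40.6% and 59.2% at 28 DAA and between 23.1% and 32.5% at 13 DAA. Windows with fewer than 20 peaks numbered 40 at 28 DAA and 0 at 13 DAA, whereas those with more than 60 numbered 26 and 60.

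The very densest windows lay towards the far end of the chromosome. Of the windows with more than 60 peaks, 20 of 26 at 28 DAA but 24 of 60 at 13 DAA were among the 56 windows past 190 Mb, a boundary set after the values had been seen. The densest window at 28 DAA was the last whole one, from 245000001 to 246000000, with 112 peaks at 28 DAA and 83 at 13 DAA. It was also among the 3 densest at 13 DAA. Its peaks covered 48.5 kb at 28 DAA and 24.8 kb at 13 DAA, the most of any window in each list. The window before it, from 244000001 to 245000000, held 98 and 65 peaks at 28 and 13 DAA, and the next of this list, from 192000001 to 193000000, held 92 and 79. In the list labelled 13 DAA the densest windows were those from 199000001 to 200000000, with 63 peaks at 28 DAA and 85 at 13 DAA, and from 194000001 to 195000000, with 44 and 83. These 5 windows lay past 190 Mb.

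The poorest windows at 28 DAA lay in the interior and were not empty at 13 DAA. From 128000001 to 129000000 there were 5 peaks at 28 DAA and 29 at 13 DAA. From 158000001 to 159000000 there were 5 and 45, and none of these overlapped a peak of the other list. From 86000001 to 87000000 there were 6 and 36, of which 3 in each list overlapped. In the poorest windows of the list labelled 13 DAA, the 2 lists were closer to each other. These were the windows from 17000001 to 18000000, with 16 peaks at 28 DAA and 27 at 13 DAA, from 184000001 to 185000000, with 17 and 27, and from 18000001 to 19000000, with 22 and 28.

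**Figure D2:**
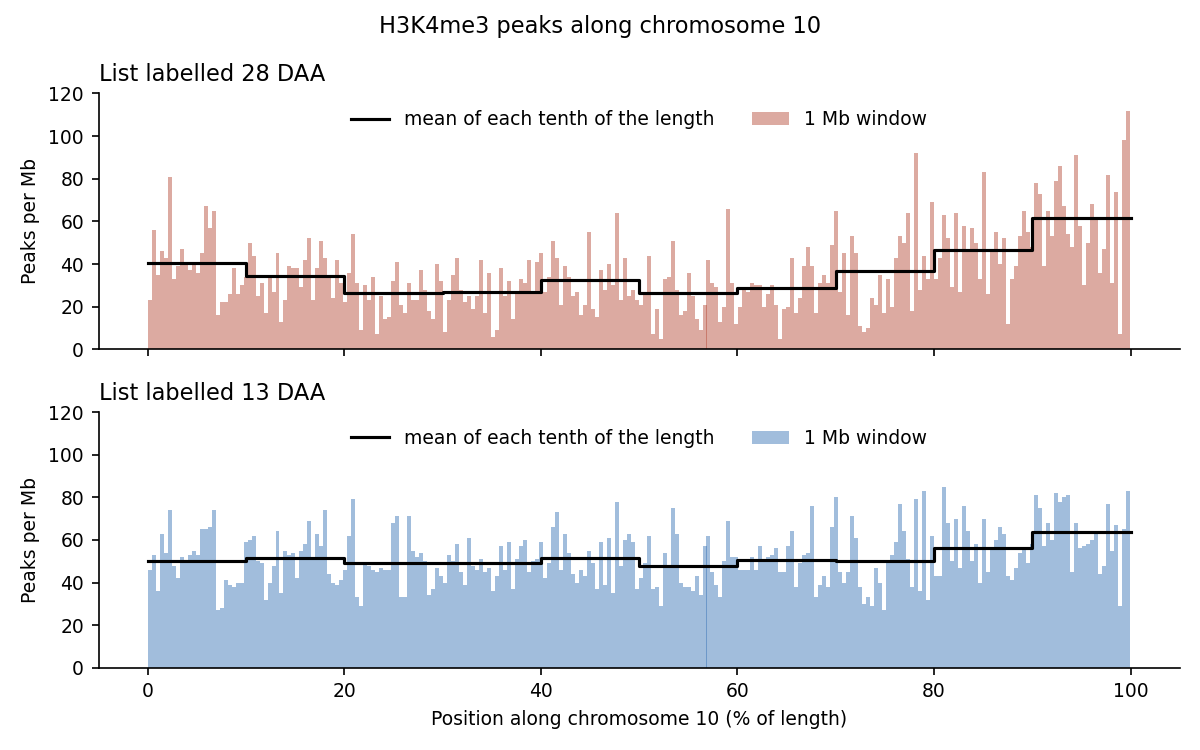
Number of H3K4me3 peaks in each 1 Mb window (bars) and mean of each step of 10% of the length (black line) along chromosome 10, for the list labelled 28 DAA (top) and the list labelled 13 DAA (bottom), with the position in percent of the length on the x axis. At 28 DAA the means run between 26.4 peaks per Mb in the third and 61.7 in the last, and at 13 DAA between 47.7 in the sixth and 63.9 in the last.

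Neighbouring windows resembled each other only weakly. The correlation of a window with the next one was r = 0.305 at 28 DAA and 0.180 at 13 DAA over the 246 windows. The longest run of windows below the median of 33 peaks at 28 DAA counted 15, from 146000001 to 161000000, with 5 to 31 peaks each. The longest run at 13 DAA below the median of 50 counted 9, from 52000001 to 61000000, with 29 to 49 peaks each. The 2 runs did not overlap.

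Stretches without any peak were longer at 28 DAA. The longest ran from 125960651 to 126896283, a length of 936 kb, followed by 157625950 to 158356290 (730 kb) and 137332082 to 137987414 (655 kb). The list labelled 13 DAA had 32, 30 and 35 peaks inside these 3 stretches, with medians of 17, 19 and 18 fragments at the summit, close to the median of all its peaks on the chromosome. The longest stretch at 13 DAA ran from 53473027 to 53814591 (342 kb), and the list labelled 28 DAA had 0 peaks inside it. The next, from 193011900 to 193231001 (219 kb) and from 45575761 to 45787582 (212 kb), held 4 and 2 peaks of the list labelled 28 DAA. Gaps of more than 100 kb numbered 621 at 28 DAA and 185 at 13 DAA, whereas the median gap was shorter at 28 DAA, with 6.48 kb against 11.3 kb at 13 DAA.

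The shorter median gap came with closer neighbours. A gap of at most 1 kb to the next peak was found 2712 times at 28 DAA and 1358 times at 13 DAA. When such peaks were joined, 6172 domains were left at 28 DAA and 11457 at 13 DAA, with 1.44 and 1.12 peaks per domain. On chromosome 10, domains of 3 or more peaks numbered 582 at 28 DAA and 146 at 13 DAA, and the most peaks in a domain were 5 in both lists. At 28 DAA, 15 domains had this number, the first of them from 5634520 to 5637402, from 8910530 to 8913566 and from 9847226 to 9850741. At 13 DAA a single domain had 5 peaks, from 240908990 to 240912058, with fold enrichments between 2.08 and 4.10 and between 47 and 72 fragments at the summits. The next ones there, among 20 with 4 peaks, were from 6881393 to 6883526 and from 16874396 to 16876011.

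To compare the ends with the interior, the outer 10% of the length on each side were set against the middle 40%. The ends held 2518 peaks at 28 DAA, or 51.1 per Mb, and the interior 2816, or 28.6 per Mb. The ratio was 1.79 (interval 1.69 to 1.89). At 13 DAA the ends held 2813 peaks, or 57.1 per Mb, and the interior 4902, or 49.8 per Mb, a ratio of 1.15 (1.10 to 1.20). The peak-poor interior was thus much more marked at 28 DAA than at 13 DAA. On the other chromosomes the ratio ran between 0.892 on chromosome 13 and 2.08 on chromosome 5 at 28 DAA, where chromosome 10 ranked 5 of 17, and between 0.781 on chromosome 13 and 1.34 on chromosome 5 at 13 DAA, where it ranked 9. Over the other 16 chromosomes together it was 1.54 at 28 DAA and 1.13 at 13 DAA.

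The interior of chromosome 10 was poor compared with other chromosomes, and so were both ends pooled. Its interior density ranked 14 of 17 in both lists and that of its ends ranked 13 in both. The median over the other 16 chromosomes was 36.1 peaks per Mb for the interior and 53.8 for the ends at 28 DAA, and 51.8 and 59.1 at 13 DAA. The ends were unequal. The last 10% lay above the median of the last 10% of the other chromosomes. That median was 54.1 peaks per Mb at 28 DAA and 59.1 at 13 DAA. It mixes denser and sparser ends, so the denser ends were not compared with each other. On chromosome 6, for example, the first 10% was the denser, with 88.1 peaks per Mb at 28 DAA and 77.9 at 13 DAA. At 28 DAA the first 10% of chromosome 10 had 40.6 peaks per Mb and the last 61.7, which were 1.42 and 2.16 times the interior. At 13 DAA they had 50.3 and 63.9 peaks per Mb, which were 1.01 and 1.28 times the interior. Such a difference between the ends was not particular to chromosome 10. The ratio of the last 10% to the first was 1.52 at 28 DAA and 1.27 at 13 DAA. On the other chromosomes it ran between 0.373 on chromosome 6 and 2.93 on chromosome 14 at 28 DAA. At 13 DAA it ran between 0.693 and 1.87 on the same chromosomes.

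In steps of 10% of the length, the density at 28 DAA was 40.6, 34.4, 26.4, 27.0, 32.3, 26.4, 28.6, 36.6, 46.7 and 61.7 peaks per Mb. The list labelled 13 DAA had 50.3, 51.5, 49.2, 49.2, 51.6, 47.7, 50.5, 50.4, 56.0 and 63.9. The highest step was 2.34 times the lowest at 28 DAA and 1.34 times at 13 DAA. The first 8 steps at 13 DAA lay between 47.7 and 51.6 peaks per Mb, and the last 2 stood above them. The ratio of the number of peaks at 28 DAA to that at 13 DAA was lowest in the third step, at 0.536, and highest in the last, at 0.965.

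Of the 246 windows, 22 (8.94%) held more peaks at 28 DAA than at 13 DAA, 3 held equal numbers and 221 held more at 13 DAA. Over the 17 chromosomes the percentage was 14.6, and chromosome 10 had the lowest of all, while the others ranged between 10.6% on chromosome 2 and 23.3% on chromosome 6. By region, these windows were 3 of 25 in the first 10%, 0 of 98 in the interior and 9 of 24 in the last 10%, with the other 10 among the 99 windows in between. In position, 17 of the 22 were among the 56 windows past 190 Mb. The highest ratio was 1.51, in the window that starts at 244000001, and the lowest was 0.111, in the window that starts at 158000001. These counts depend on the threshold of the lists. At a q-value of at most 1e-10, 232 windows held more peaks at 28 DAA, and with the list labelled 13 DAA cut to as many strongest peaks as the other 93 did.

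The windows that were rich in one list tended to be rich in the other. Over the 246 windows, r was 0.745 and rho was 0.728, and the r of the other chromosomes ran between 0.663 on chromosome 13 and 0.868 on chromosome 14. Counts at 28 DAA followed those of the stronger peaks at 13 DAA (q-value of at most 1e-10, r = 0.773) more closely than those of its weaker peaks (r = 0.577). Neighbouring windows of a library are not independent, and no test was made.

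**Figure D3:**
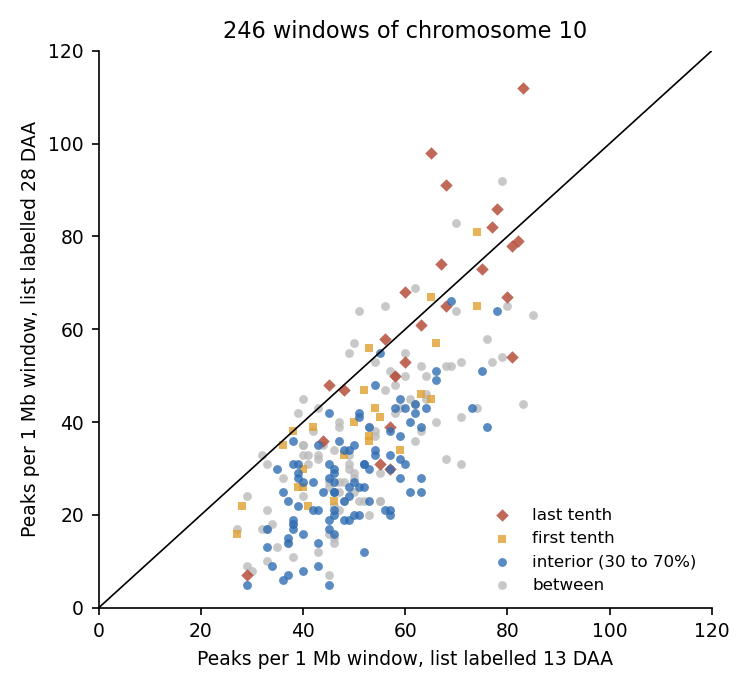
Peaks per 1 Mb window of chromosome 10 in the list labelled 28 DAA (y axis) against the list labelled 13 DAA (x axis), 1 symbol per window, by region, with a line at equal numbers. Of the 246 windows 22 lie above it, 9 of them in the last 10% (red diamonds) and 0 in the interior (blue points).

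The widths of the peaks on chromosome 10 lay within the range of the other chromosomes. The median was 280 bp at 28 DAA (quartiles 202 and 447 bp) and 185 bp at 13 DAA (quartiles 149 and 249 bp), against medians between 274 and 289 bp and between 183 and 190 bp on the other chromosomes. Widths ran between 161 and 2192 bp at 28 DAA and between 134 and 1541 bp at 13 DAA. The smallest width of each list was shared by 404 peaks at 28 DAA and by 1435 at 13 DAA. Peaks wider than 1000 bp numbered 282 (3.17%, against 3.49 percent over the 17 chromosomes) at 28 DAA and 25 (0.195%, against 0.141 percent) at 13 DAA. Along the chromosome, the median width in steps of 10% of the length stayed between 267 and 290 bp at 28 DAA and between 181 and 191 bp at 13 DAA. The median widths of interior and ends were close at 28 DAA, with 285 bp in the interior, 273 bp in the first 10% and 279 bp in the last.

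Enrichment, too, was close to that of the rest of the genome. The median fold enrichment was 5.96 at 28 DAA (quartiles 4.58 and 8.14) and 5.13 at 13 DAA (quartiles 4.47 and 5.97), and the other chromosomes had medians between 5.74 and 6.12 and between 5.10 and 5.16. At the summit, a peak had a median of 41 fragments at 28 DAA (quartiles 25 and 74) and of 19 at 13 DAA (quartiles 16 and 23). Beside these summits, the median of the local background was 6.07 fragments at 28 DAA and 2.67 at 13 DAA. Peaks at 28 DAA thus had more fragments over a higher local background, so the folds differed less than the fragment numbers. In the same steps, median folds ran between 5.76 and 6.09 at 28 DAA and up to 5.17 at 13 DAA.

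The peak with the highest fold enrichment at 28 DAA lay from 211325408 to 211325783. Its fold enrichment was 33.4 (28.1 to 39.4) from 139 fragments, and the peak of 215 bp that it overlapped at 13 DAA had 10.3 from 31 fragments. It ranked 2 among all peaks of this list on the 17 chromosomes. The next were from 174362099 to 174362448, with 29.9 at 28 DAA and 8.07 at 13 DAA, and from 195180083 to 195180407, with 27.7 and 6.45. At 13 DAA, the highest fold enrichments were lower. They were 17.1 (13.6 to 21.3) from 9925536 to 9925841, where the peak at 28 DAA had 10.7, 16.1 from 206649772 to 206650025, where it had 12.1, and 16.1 from 224168769 to 224169155, where it had 23.9.

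The summit with the most fragments was at the same place in both lists. At 28 DAA it lay in the peak from 69313611 to 69314103 with 254 fragments, and at 13 DAA in the peak from 69313635 to 69314039 with 91. The fold enrichments there were 7.70 at 28 DAA and 12.6 at 13 DAA, over local backgrounds of 32.1 and 6.30 fragments. The order of the stages was thus opposite for fragments and for fold. At 28 DAA, the next were from 192812096 to 192812787 with 242 fragments, where the peak at 13 DAA had 82, and from 224168687 to 224169206 with 228, where it had 83. The place at 224168687 was also among the 3 highest folds at 13 DAA. At 13 DAA, 91 and 88 fragments were also found from 217134858 to 217135478 and from 240914715 to 240915121. These peaks had fold enrichments of only 3.46 and 2.72, over local backgrounds of 25.6 and 31.7 fragments.

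The widest peak at 28 DAA ran from 166874729 to 166876920 and was 2192 bp wide, with a fold enrichment of 5.51 and 201 fragments. It covered 4 peaks of the list labelled 13 DAA, which were 265, 228, 176 and 880 bp wide. The next widest, from 222720948 to 222723096 (2149 bp) and from 34969063 to 34971137 (2075 bp), each covered 2, of which the wider were 1264 and 1357 bp. The same stretches were thus marked in both lists but called in pieces at 13 DAA. The widest peaks at 13 DAA were each met by 1 peak of similar width at 28 DAA. They ran from 176056824 to 176058364, with 1589 bp at 28 DAA and 1541 bp at 13 DAA, from 245564149 to 245565670, with 1609 and 1522 bp, and from 105648643 to 105650060, with 1697 and 1418 bp. Each peak named here for its fold enrichment, fragments or width overlapped at least 1 peak of the other list.

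Of the 100 highest peaks on the 17 chromosomes, chromosome 10 held 8 by fold enrichment, 7 by width and 10 by fragments at 28 DAA. At 13 DAA it held 6 by fold enrichment, 12 by width and 0 by fragments. Its share of all peaks on the 17 chromosomes was 7.26% at 28 DAA and 7.87% at 13 DAA. Its peak with the most fragments at 13 DAA, with 91, ranked 417, whereas the highest on another chromosome had 201.

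Overlap between the lists, of at least 1 bp, was found for 2961 of the 8884 peaks at 28 DAA, or 33.3% (32.4 to 34.3), against 33.6 percent over the 17 chromosomes. It was found for 3176 of the 12815 peaks at 13 DAA, or 24.8% (24.0 to 25.5), against 27.1 percent. At 28 DAA chromosome 10 ranked 9 of 17, within a range of 31.9% on chromosome 5 to 35.9% on chromosome 12. For 13 DAA it was the third lowest, within a range of 23.6% on chromosome 2 to 29.4% on chromosome 14. The share at 13 DAA was below that of the 17 chromosomes together, which include chromosome 10. Its interval does not measure the spread between chromosomes.

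The share of overlapping peaks grew with width in both lists. At 28 DAA it was 19.6% up to 200 bp, 29.4% between 200 and 500 bp, 56.4% between 500 and 1000 bp and 80.9% (228 of 282) above that. The shares at 13 DAA were 17.5%, 31.9%, 76.0% and 96.0% (24 of 25) in the same classes. The other 16 chromosomes showed the same order, with 18.9%, 29.5%, 57.0% and 82.3% at 28 DAA and 19.2%, 34.8%, 77.7% and 93.6% at 13 DAA. With the number of fragments, the share did not rise in every class at 28 DAA. It was 32.4% up to 20 fragments, 24.1% between 20 and 50, 25.6% between 50 and 100 and 76.2% above. At 13 DAA it was 15.6%, 38.3% and 93.9% (93 of 99) in the first 3 classes and no peak had more than 100. The other 16 chromosomes had 32.0%, 22.5%, 28.3% and 74.9% at 28 DAA. In the first 3 classes at 13 DAA they had 17.4%, 40.7% and 91.8%.

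Overlapping peaks on chromosome 10 were wider and stronger than the others. At 28 DAA their medians were 389 bp, 56 fragments and a fold enrichment of 6.51, while peaks without overlap had 250 bp, 38 fragments and 5.76. At 13 DAA they were 226 bp, 23 fragments and 5.81 with overlap, and 177 bp, 18 fragments and 4.91 without. Since a wider interval has more room to meet another, the widths are in part set by the rule for an overlap. Most overlaps were simple. Of the overlapping peaks at 28 DAA, 2744 met 1 peak of the other list, 197 met 2, 16 met 3 and 4 met 4 or more, while at 13 DAA 3150 met 1 and 26 met 2.

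The 2 lists differed in where their unshared peaks lay. At 28 DAA the ratio of ends to interior was 1.89 (1.72 to 2.07) for overlapping peaks and 1.74 (1.63 to 1.86) for the others. For 13 DAA it was 1.84 (1.68 to 2.02) for overlapping peaks, but 0.971 (0.919 to 1.03) for the others. Over the other 16 chromosomes together, peaks without overlap had ratios of 1.51 at 28 DAA and 0.989 at 13 DAA. The difference between the lists was thus not particular to chromosome 10. The overlapping classes of both lists lie at the same places by construction, so their ratios are not independent of each other. The unshared peaks at 13 DAA were spread almost evenly, between 36.3 per Mb in the first 10% and 41.0 in the fifth, whereas those at 28 DAA ran between 16.8 in the third and 39.9 in the last.

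The stronger peaks at 13 DAA, those with q up to 1e-10, had a ratio of ends to interior of 1.42 (1.30 to 1.56), and the weaker ones had 1.07 (1.02 to 1.13). At 28 DAA the ratio was 1.78 (1.67 to 1.89) for the stronger and 1.82 (1.63 to 2.03) for the weaker peaks. The contrast between ends and interior was thus larger for stronger peaks at 13 DAA, while both classes had similar ratios at 28 DAA. Over the other 16 chromosomes together, the stronger and weaker peaks had ratios of 1.37 and 1.06 at 13 DAA. At 28 DAA they had 1.55 and 1.51. Among peaks wider than 1000 bp at 28 DAA, 71 lay in the ends and 96 in the interior, a ratio of 1.48 (1.09 to 2.01). At 13 DAA, 10 lay in the ends, all in the last 10%, and 5 in the interior, a ratio of 4.00 (1.43 to 11.2) that rests on few peaks. Over the other 16 chromosomes together, peaks wider than 1000 bp had ratios of 1.58 at 28 DAA and 2.27 at 13 DAA.

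In the same regions, the share of peaks that overlapped the other list hardly changed at 28 DAA. It was 32.3% (29.5 to 35.3) in the first 10%, 32.4% (30.6 to 34.1) in the interior and 35.3% (32.9 to 37.7) in the last 10%. For 13 DAA it was 27.8% (25.4 to 30.4), 20.3% (19.2 to 21.4) and 36.2% (33.9 to 38.6) in these regions. The share at 13 DAA was thus lowest in the interior, where peaks at 28 DAA were fewest. These intervals treat peaks as independent and do not test the regions against each other.

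**Figure D4:**
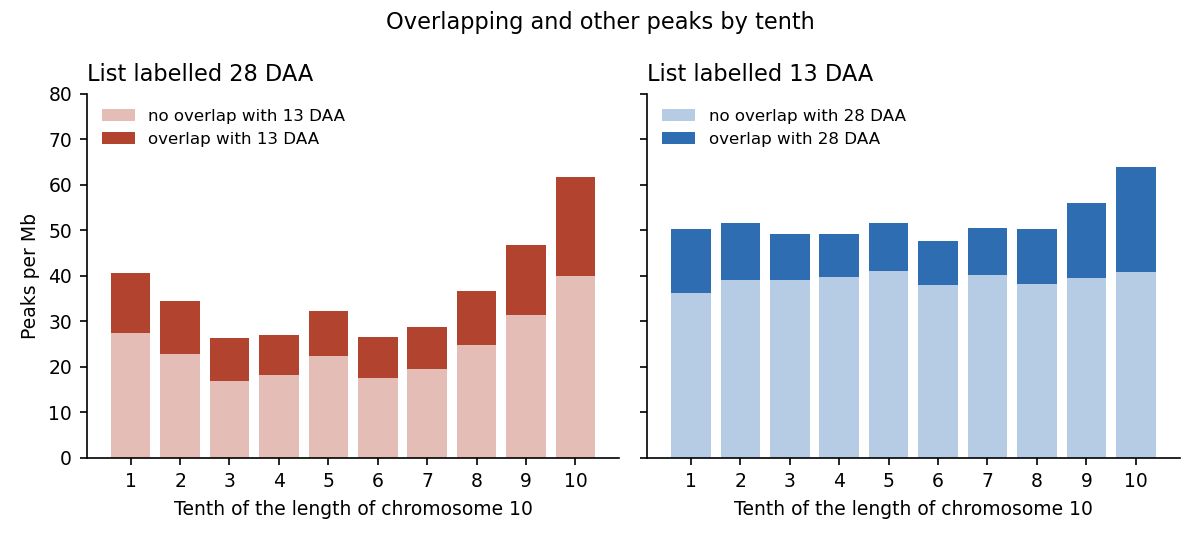
Peaks per Mb in 10 equal steps along the length of chromosome 10, for the list labelled 28 DAA (left) and the list labelled 13 DAA (right), where dark bars are peaks that overlap the other list by at least 1 bp and light bars, stacked below them, are the rest. The light part is nearly level at 13 DAA (36.3 to 41.0 per Mb) and varies at 28 DAA (16.8 to 39.9 per Mb).

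Where 1 peak met 1 peak, the pairs could be compared directly. Chromosome 10 held 2696 such pairs, with median widths of 367 bp at 28 DAA and 225 bp at 13 DAA. The peak at 28 DAA was the wider in 2167 pairs (80.4%), against 80.7% over the other 16 chromosomes together. The median ratio of widths was 1.53, against 1.58 over those 16. On chromosome 10, 39 bp was the median distance of the summits of a pair, and 2072 pairs (76.9%) had them within 100 bp, against 77.1% over those 16. The peak at 28 DAA was at least 2 times wider in 839 pairs of chromosome 10, or 31.1%, against 33.4 percent over the 17 chromosomes. This was the lowest share of any chromosome, although the next lowest was close to it at 32.4%. The reverse, a peak at least 2 times wider at 13 DAA, was found in 72 pairs (2.67%), against 2.84% over the other 16 chromosomes together. The smallest width differed between the lists, with 161 bp at 28 DAA and 134 bp at 13 DAA. Its part in the widths of the pairs was not tested.

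The pairs differed more in fragments than in fold enrichment. The medians were 53 fragments at 28 DAA and 22 at 13 DAA, with a median ratio of 2.53 per pair. This ratio was the lowest of the 17 chromosomes, on the others of which it ran between 2.58 and 2.92. The median fold enrichments were 6.44 at 28 DAA and 5.82 at 13 DAA. The fold was higher at 28 DAA in 59.6% of the pairs, against 60.2% over the other 16 chromosomes together. The local background of the peaks on the chromosome, with its medians of 6.07 fragments at 28 DAA and 2.67 at 13 DAA, differed in the same direction. Its part in the ratio of fragments was not tested.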

How the data were processed

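H3K4me3 ChIP-Seq peak lists of developing sunflower seeds at 28 and 13 DAA were analyzed, with 1 library per stage. According to the methods, the authors cleaned the reads with FASTX-Toolkit, aligned them by BWA-MEM against the XRQ genome, discarded duplicates in Picard MarkDuplicates and ran MACS2 to call peaks. Pooling of immunoprecipitations and an input control are not stated. Significance was deposited as −log10 of the p-value and of the q-value. Fold enrichment is a ratio taken at the summit by the authors' peak caller. The deposited score is the −log10 q-value multiplied by a constant and truncated, and served only to check the lists.

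Intervals on chromosome 10 were selected by sequence name, and the other 16 chromosomes were treated alike. Windows of 1 Mb were filled by summit position. The last partial window was left out. For the fragments, a pseudocount of 1 was assumed and −log10 p had to match within 0.001. The code was tested on simulated data. Shares have Wilson intervals, and fragment numbers and folds have exact Poisson intervals; the interval of a ratio treats peaks as independent counts. All intervals have a confidence level of 95%, and PCR copies are not independent molecules. Depth was read only from the genome-wide background in the lists, with the smallest peak width of a list taken as its fragment length.

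The text names, for either list, the 3 peaks highest in fold enrichment, in fragments and in width, the 3 densest and 3 poorest windows, the 3 longest stretches without a peak and the 3 domains with the most peaks, with ties taken by position. Alternatives were a q-value of at most 1e-10, the list labelled 13 DAA cut to as many strongest peaks as the other, joined peaks, an overlap of 50% of both intervals, the summit inside an interval, other bounds of ends and interior, windows of 5 Mb, and covered length in place of number. The chromosome and these rules were chosen with earlier results of these data known. The relation to chromosome length was added after the values had been seen. The reference table at hand was of another assembly, so genes and sequences were not analyzed here. Python 3.11.15, numpy 2.4.6, pandas 2.3.3, scipy 1.17.1 and matplotlib 3.10.9 were used.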

Additional observations from a re-analysis of the deposited data

How the results depend on the processing

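Of 44 alternative values, 27 moved, 1 reversed and 16 stayed close, meaning within 1.5 times for counts and within the counting interval of the value for the others (for correlations, the interval from the number of windows). Of these 16, 3 are values at 28 DAA of a list that was not cut. At a q-value of at most 1e-10, chromosome 10 had 3060 peaks at 13 DAA, median widths of 329 bp at 28 DAA and 254 bp at 13 DAA, and shares of overlapping peaks of 19.2% and 44.0%. The ratio of ends to interior at 13 DAA was 1.42, the ratio of peaks at 28 DAA to those at 13 DAA reversed to 2.20, and 232 windows had more peaks at 28 DAA. With the list labelled 13 DAA cut to as many strongest peaks as the other, the median width at 13 DAA was 196 bp, the shares were 29.4% and 29.3%, the ratio of ends to interior at 13 DAA was 1.22, the ratio of peaks was 0.938 and 93 windows had more peaks at 28 DAA. With peaks joined into domains, the medians were 410 bp at 28 DAA and 194 bp at 13 DAA, the shares 42.1% and 23.2%, the ratio of peaks 0.539 and the windows 5. An overlap of 50% of both intervals gave shares of 18.8% and 13.0%, and the summit inside an interval gave 29.1% and 23.3%. The outer 20% against the middle 60% gave a ratio of ends to interior of 1.55 at 28 DAA. By covered length, this ratio was 1.23 at 13 DAA, 162 windows had more at 28 DAA, and the correlation of windows was 0.814. The ratio of ends to interior stayed above 1 in both lists and was the larger at 28 DAA under every alternative tried. Stricter settings leave fewer peaks by construction, and the cause of the other shifts was not tested. No paired analysis was possible because each stage had 1 library. For the same reason, stage and depth cannot be told apart.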

Other observations

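A pair of places on chromosome 10, chosen after their values were seen, combined many fragments and a high local background with low fold enrichment at 13 DAA. They held all 13 peaks of the list labelled 13 DAA on this chromosome whose local background was 14 fragments or more. The first place ran from 217134595 to 217146459, a length of 11.9 kb, with 5 peaks at 28 DAA and 6 at 13 DAA. Its local background was between 24.9 and 38.6 fragments at 28 DAA and between 17.2 and 26.6 at 13 DAA, and its fold enrichments were between 2.27 and 2.94 at 28 DAA and between 2.32 and 3.46 at 13 DAA. The second ran from 240908990 to 240916785, a length of 7.80 kb, with 5 peaks at 28 DAA and 7 at 13 DAA. Its local background was between 15.8 and 24.5 fragments at 28 DAA and between 14.8 and 31.7 at 13 DAA, with fold enrichments between 2.43 and 2.80 and between 2.08 and 4.10. The median background on the chromosome was 6.07 fragments at 28 DAA and 2.67 at 13 DAA, so both places lay above it in both lists. The 99.9th percentile was 41.4 at 28 DAA, above both places. At 13 DAA it was 13.0, below both, which follows from how the places were chosen. The summits of the second place had 41 to 61 fragments at 28 DAA, where the median of the chromosome was 41 and the upper quartile 74. The domain of 5 peaks and both low-fold peaks with the most fragments at 13 DAA lay in these places. The reason for the high background of these places was not tested.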
